A study of Mus musculus with 4 samples.

Results

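The cells described here were CD8+ T cells from mouse glioma that held few transcripts of granzymes C and F and few of Tcf7, Lef1 and S1pr1. They were 562 of 13960 barcodes, 292 from WT and 270 from CaMKK2 KO mice. The cells were chosen by their own UMI counts of the genes named next. A barcode was a member when it had at least 500 genes, under 10% mitochondrial UMIs (unique molecular identifiers, which count transcripts), at least 2 UMIs of Cd3d, Cd3e and Trac together and at least 2 of Cd8a and Cd8b1. It also held no UMI of Ncr1, Cd4 or Foxp3, under 30 of C1qa, C1qb and C1qc, under 3 of Gzmc and Gzmf, under 2 of Tcf7, Lef1 and S1pr1, and under 2 of Klra1, Klra6 and Klra7. The gated cells came from live CD45+ leukocytes sorted from the tumor-bearing brain hemispheres of C57Bl/6 mice aged 8 to 12 weeks, 14 days after 50000 CT2a glioma cells were placed in the brain. The WT group was 4 mice with intact Camkk2, and the CaMKK2 KO group was 4 CaMKK2-/- mice, which lack the gene in every cell of the host but carried the same tumor cells. No treatment is named for either group. The 4 mice of a genotype were marked with hashtag antibodies and pooled on 1 channel of the 10X 3′ platform, so that genotype and channel cannot be told apart. The question was how these cells differed between WT and CaMKK2 KO hosts, with the mouse as the replicate.

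CD8+ T cells recognize peptides on MHC class I and kill with perforin and granzymes. Long exposure to antigen in a tumor is known to drive an exhausted state, with inhibitory receptors such as PD-1 (Pdcd1) and the transcription factor Tox, while Tcf7 marks a stem-like precursor pool. Costimulatory receptors of the TNF receptor family, such as 4-1BB (Tnfrsf9) and GITR (Tnfrsf18), appear on activated T cells. CaMKK2 is a kinase that responds to calcium and calmodulin and acts on AMPK and on calmodulin-dependent kinases.

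Cells lay just inside and just outside the limits on granzymes and on Tcf7, and whether the members form a separate type was not tested. Of the WT cells that met every other condition, 203 held no UMI of Gzmc and Gzmf, 62 held 1, 20 held 2 and were just inside the limit, and 6 held 3 and were just outside it. In CaMKK2 KO mice the numbers were 170, 69, 14 and 10 cells. Farther out, 9 WT cells held 4 UMIs, 3 held 5 and 67 held 6 or more, and in CaMKK2 KO mice 2, 2 and 64 cells. Most cells outside this limit were thus well above it. For Tcf7, Lef1 and S1pr1, 14 WT cells held 1 UMI and were inside the limit, 9 held 2 and were outside, and in CaMKK2 KO mice these were 21 and 5 cells. Hashtags assigned 285 WT and 253 CaMKK2 KO members to a single mouse. WT mice 1 to 4 gave 8, 67, 128 and 82 cells, and CaMKK2 KO mice 1 to 4 gave 99, 21, 102 and 31. The UMIs of these cells summed to 54672, 743976, 1400236 and 923724 in WT mice and to 1216521, 291645, 1408747 and 351658 in CaMKK2 KO mice. WT mouse 1 had fewer than 10 cells and did not enter the tests of expression, so those compared 3 WT with 4 CaMKK2 KO mice. In it, a gene with 0 UMIs could stand at up to 54.9 CPM (counts per 1000000 UMIs of the mouse's gated cells), and in CaMKK2 KO mice 2 and 4 at up to 10.3 and 8.53 CPM, for counting error only. Median depth per cell was 6588.5, 10179, 10002 and 9647 UMIs in WT and 10662, 10890, 12668.5 and 10330.0 in the CaMKK2 KO group. The 4 CaMKK2 KO mice were thus all deeper than the 4 WT mice (p = 0.0286 in an exact two-sided permutation test, the least that 4 mice against 4 allow). The 2 libraries shared 42 barcodes, and none was a member in both.

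Of the markers given for the cells, Cd8a is a gene of the gate, which fixes its presence in members. It was seen in 99.6% of WT and 98.4% of CaMKK2 KO members, and in none of 142 WT and 1.79% of 168 CaMKK2 KO cells that carried B cell genes. Those B cells had a median of 3553 and 5084.5 UMIs, and the members 9839 and 11457. Pdcd1 was found in 86.7% and 83.4% of members against 0.704% and 1.19% of the B cells, and Cxcr6, a receptor of tissue-resident T cells, in 92.3% and 96.0% against 0.704% and 0%. Klrh1, an NK-type lectin receptor gene, was found only in 23.9% and 30.4% of members, so it marked a minority of them. Its level was 187 ± 16.95 CPM in WT (SD, n = 3) and 196 ± 76.9 in CaMKK2 KO mice (n = 4). In CD8+ T cells with at least 3 Gzmc and Gzmf UMIs, called Gzmc/Gzmf-high here, it was 118 ± 136 and 119 ± 41.9 CPM (n = 3 each). Klrh1 was seen in 29.4% and 30.8% of those cells, which were deeper. With each cell thinned to 5000 UMIs the shares were 17.9% and 20.8%, against 21.9% and 28.1% of members. Cd8a stood at 1081 ± 92.7 and 1262 ± 145 CPM in members and at 861 and 917 CPM in the Gzmc/Gzmf-high cells. For Cxcr6 the members had 594 ± 129 and 675 ± 94.3 CPM and the Gzmc/Gzmf-high cells 412 and 397. For Pdcd1 the members had 395 ± 99.5 and 319 ± 55.1 CPM and the Gzmc/Gzmf-high cells 368 and 285. These levels describe the gates and were not tested. Of the genes of other lymphocytes, Khdc1a (NK cells), Sox13 (γδ T cells) and Ms4a1 (B cells) had 0 UMIs in every mouse, as had Ncr1, Cd4 and Foxp3 by the gate. Other members of these lists were present. The 8 NK cell genes summed to 73.2 to 881 CPM per mouse, highest in CaMKK2 KO mouse 2 and mostly Fcer1g, which is also a macrophage gene. The 6 B cell genes summed to 19.9 to 91.5 CPM, with Ighm the most abundant, seen in 23.9% of WT and 20.2% of CaMKK2 KO members. The 9 measured γδ and type 17 T cell genes summed to 6.43 to 73.2 CPM, with Trgc1 the most abundant, and Trdc stood at 37.7 CPM in CaMKK2 KO mouse 2 and at 2.13 CPM or less elsewhere.

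The gated cells made up a similar part of the infiltrate on average in both genotypes, with a wide spread between mice. They were 0.719, 4.62, 8.71 and 5.32% of all cells in WT mice 1 to 4 and 7.03, 1.17, 6.05 and 2.50% in CaMKK2 KO mice 1 to 4. The mean was 4.84% ± 3.28 in WT and 4.19% ± 2.80 in CaMKK2 KO mice (SD, n = 4 each), and the groups overlapped (difference -0.655 percentage points, two-sided exact permutation test, p = 0.8). Of the CD8+ T cells, they were 44.4, 57.3, 81.5 and 65.6% in WT and 73.9, 36.2, 76.7 and 83.8% in CaMKK2 KO mice (62.2% ± 15.5 against 67.6% ± 21.4, p = 0.657, same exact test). The sign of the first difference turned without WT mouse 3 (0.633) or CaMKK2 KO mouse 2 (0.351). How large a difference in share 4 mice could detect was not tested.

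**Figure D1:**
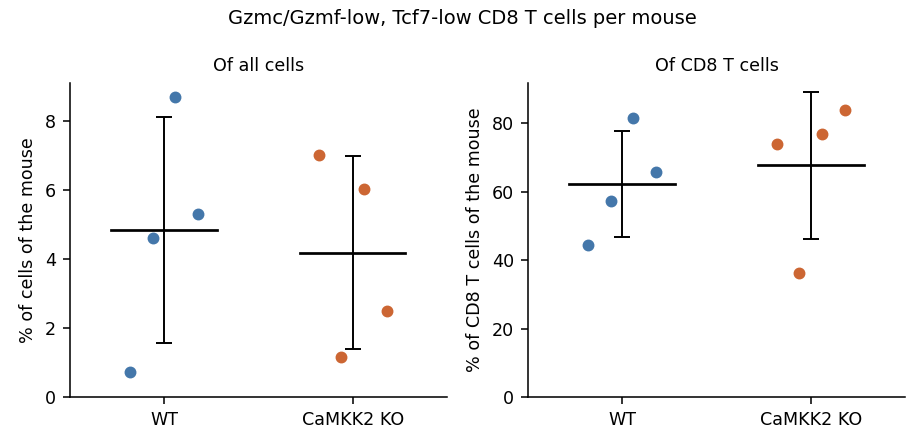
Share of gated CD8+ T cells in each mouse, as a percentage of all cells (left) and of CD8+ T cells (right). Points are mice 1 to 4 from left to right, and bars are the mean and SD of 4 mice. WT mouse 1 is lowest in WT at 0.719% of all cells and CaMKK2 KO mouse 2 lowest in CaMKK2 KO at 1.17%, and the groups overlap in both panels.

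Camkk2 itself (chromosome 5, 122731170 to 122779409 of mm10) had few UMIs in these cells. It stood at 0, 6.72, 6.43 and 9.74 CPM in WT mice 1 to 4 and 3.29, 3.43, 3.55 and 5.69 CPM in CaMKK2 KO mice 1 to 4. The 7 mice tested did not overlap. WT mouse 1 had 0 UMIs, a count that allows up to 54.9 CPM, so it cannot be ranked against the others. Over 8 mice, with that 0 included, the two-sided exact permutation test gave p = 0.457, which therefore decides nothing. Over all cells of a mouse, Camkk2 was 27.3 to 35.8 CPM in WT and 13.1 to 22.4 CPM in CaMKK2 KO mice (29.7 ± 4.05 against 16.6 ± 4.19, p = 0.0286, same exact permutation test). The reads are 3′ tags and may lie outside the deleted part, so what remains in the CaMKK2 KO mice checks nothing further.

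Between genotypes, 73 of 6172 genes tested passed an adjusted p of 0.05 in the gated cells, 1.18% of them. Of these, 43 (0.697% of the genes tested) had a higher and 30 (0.486%) a lower level in CaMKK2 KO mice, and the tested mice of the 2 groups did not overlap for 72 of the 73. The exception was Gpr183, an oxysterol receptor gene that guides lymphocyte position. The split depended on scaling: with TMM scaling 26 genes were higher and 40 lower, and with DESeq2 28 and 38, although all 73 kept their sign in both. DESeq2 called 66 genes, of which 28 were among the 73. It gave no adjusted p to some of the 73, such as Eif3j1, so not all of the others failed its test. Without regard to a test, 14.5% of genes had no overlap between the tested mice, 9.93% higher and 4.52% lower in CaMKK2 KO mice. The median log2 fold change over all genes tested was 0.08. A change in these cells and a change in which of them are present cannot be told apart, and since all p-values measure the spread between mice of 1 channel per genotype, neither can an effect of the channel.

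**Figure D2:**
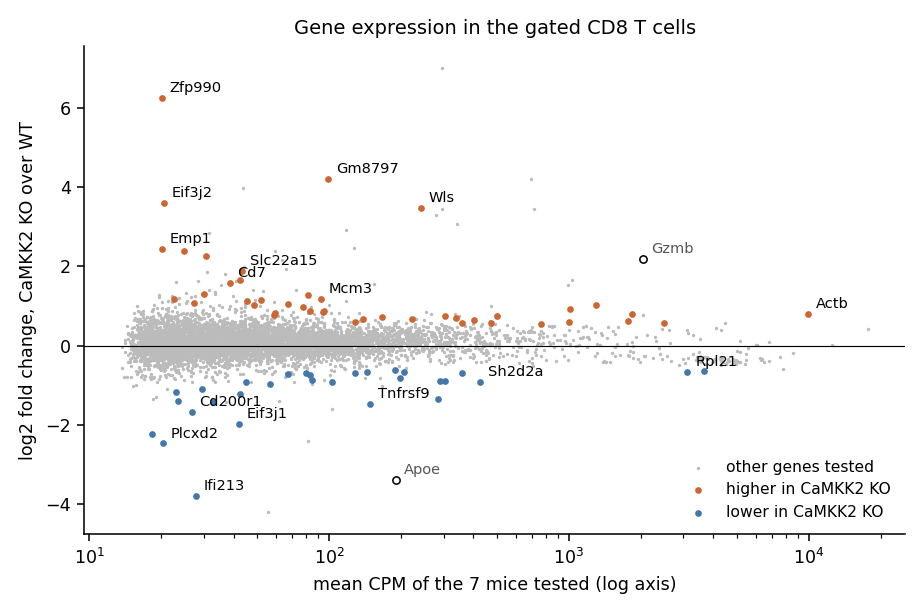
Log2 fold change (CaMKK2 KO over WT) against the mean CPM of the 7 mice tested (log axis) for the 6172 genes tested in the gated CD8+ T cells. Colored points are the 43 genes higher and 30 lower in CaMKK2 KO mice, and open points are Gzmb and Apoe, which did not pass the test. Zfp990, Gm8797 and Eif3j2 lie highest and Ifi213 and Plcxd2 lowest among the called genes.

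Costimulatory and inhibitory genes of T cells were among the lower genes. Tnfrsf9, the gene of the costimulatory receptor 4-1BB (chromosome 4, 150914562 to 150946102), stood at 366, 233, 254 and 224 CPM in WT mice 1 to 4 and 97.8, 78.9, 95.1 and 54.03 CPM in CaMKK2 KO mice 1 to 4. Every CaMKK2 KO mouse was below every WT mouse, with means 2.91-fold apart (log2 fold change -1.47, standard error 0.16, adjusted p = 2.20e-05). This call was made in all 19 alternatives, at log2 fold changes of -1.82 to -1.32. It was seen in 66.7% of WT and 43.9% of CaMKK2 KO members, and in 1.41% and 2.38% of the B cells. Tnfrsf18, which encodes GITR, was 439, 250.0, 229 and 305 CPM in WT and 164, 182, 168 and 136 CPM in CaMKK2 KO mice (log2 fold change -0.68, standard error 0.14, adjusted p = 0.0232). The groups did not overlap, but the call was lost without WT mice 2 or 4 or CaMKK2 KO mice 1 or 4 (adjusted p of up to 0.249, without WT mouse 4), holding in 11 of 19 alternatives, with the highest adjusted p of 0.496 in members with no Mki67 or Top2a UMI. That alternative compared fewer cells, and over all alternatives the log2 fold change of Tnfrsf18 was -0.78 to -0.44. Cd7, a T cell surface molecule, went the other way, at 73.2, 18.8, 16.4 and 17.3 CPM in WT and 39.5, 54.9, 54.7 and 68.2 CPM in CaMKK2 KO mice (log2 fold change 1.58, standard error 0.25, adjusted p = 0.00188). It was called in 17 of 18 alternatives, and not in members without any UMI of Gzmc, Gzmf, Tcf7, Lef1 or S1pr1 (log2 fold change 1.08, adjusted p = 0.059). That alternative also left out CaMKK2 KO mouse 2, which had 7 such cells, under the limit of 10. The 3 WT mice tested lay below all CaMKK2 KO mice, while WT mouse 1, with 4 UMIs in 8 cells, was above them. Of 13 costimulatory genes tested, 1 was higher and 2 lower (23.1%, against 1.18% of all genes), with a median log2 fold change of -0.17, and Cd28 (0.12), Cd27 (-0.52) and Icos (-0.02) did not pass the test.

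Among 22 inhibitory receptors and exhaustion factors tested, 3 were lower and none higher by the edgeR test (13.6%, against 1.18% of all genes called and 0.486% called lower, median log2 fold change -0.13). Cd200r1, an inhibitory receptor gene, was 18.3, 32.3, 42.9 and 58.5 CPM in WT and 10.7, 13.7, 17.7 and 11.4 CPM in CaMKK2 KO mice (log2 fold change -1.68, standard error 0.28, adjusted p = 0.00408). WT mouse 1 lay just above the highest CaMKK2 KO mouse, and the call was lost without WT mouse 4 (adjusted p of up to 0.062, without WT mouse 4), holding in 16 of 17 alternatives. Stat3, a transcription factor that carries signals of cytokines such as IL-6, IL-10 and IL-21, was 274, 206, 248 and 251 CPM in WT and 163, 158, 146 and 142 CPM in CaMKK2 KO mice (log2 fold change -0.63, standard error 0.13, adjusted p = 0.0232). The groups did not overlap, and the call was lost without WT mice 3 or 4 or CaMKK2 KO mice 1 or 4 (adjusted p of up to 0.207, without WT mouse 4), holding in 12 of 19 alternatives. Nr4a2, a nuclear receptor induced by T cell receptor signals, was 146, 286, 261 and 263 CPM in WT and 208, 117, 152 and 102 CPM in CaMKK2 KO mice (log2 fold change -0.83, standard error 0.19, adjusted p = 0.041). WT mouse 1 fell within the CaMKK2 KO range, and the call was lost without WT mice 2, 3 or 4 or CaMKK2 KO mice 2, 3 or 4 (adjusted p of up to 0.218, without WT mouse 4), holding in 12 of 19 alternatives. Tox, one of the markers given for these cells, was 54.9, 214, 262 and 245 CPM in WT and 103, 37.7, 184 and 114 CPM in CaMKK2 KO mice, and it did not pass the test (log2 fold change -1.02, standard error 0.39, adjusted p = 0.311). WT mouse 1 lay low within the CaMKK2 KO range and CaMKK2 KO mouse 3 close below the other WT mice, and its value became -1.42 (adjusted p = 0.0214) once CaMKK2 KO mouse 3 was left out. In members without any UMI of Gzmc, Gzmf, Tcf7, Lef1 or S1pr1 and without CaMKK2 KO mouse 2 it was -0.62 (adjusted p = 0.045). Neither Pdcd1 (-0.31, adjusted p = 0.42), Lag3 (0.23, 0.549), Havcr2 (0.45, 0.695) nor Ctla4 (-0.02, 0.995) passed it.

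Dusp4, a phosphatase of MAP kinases, was also lower, at 0, 44.4, 35.7 and 53.05 CPM in WT and 23.02, 17.1, 22.7 and 11.4 CPM in CaMKK2 KO mice (log2 fold change -1.10, standard error 0.26, adjusted p = 0.0444). The call was lost without WT mice 2 or 4 or CaMKK2 KO mice 1 or 4 (adjusted p of up to 0.303, without WT mouse 4), holding in 8 of 18 alternatives. Crlf2, a chain of the TSLP receptor, was 146, 130.4, 151 and 139 CPM in WT and 73.2, 72.0, 69.6 and 85.3 CPM in CaMKK2 KO mice (log2 fold change -0.93, standard error 0.14, adjusted p = 0.00185), and it was also lower in all other cells and in the Gzmc/Gzmf-high cells. Sh2d2a, an adaptor of T cell receptor signalling chosen after its values were seen, was 311, 676, 479.9 and 605 CPM in WT and 289, 254, 393 and 293 CPM in CaMKK2 KO mice (log2 fold change -0.91, standard error 0.16, adjusted p = 0.00481). WT mouse 1 fell among the CaMKK2 KO mice for this gene, and the call was lost without WT mice 2 or 4 (adjusted p of up to 0.0647, without WT mouse 2), holding in 17 of 19 alternatives.

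**Figure D3:**
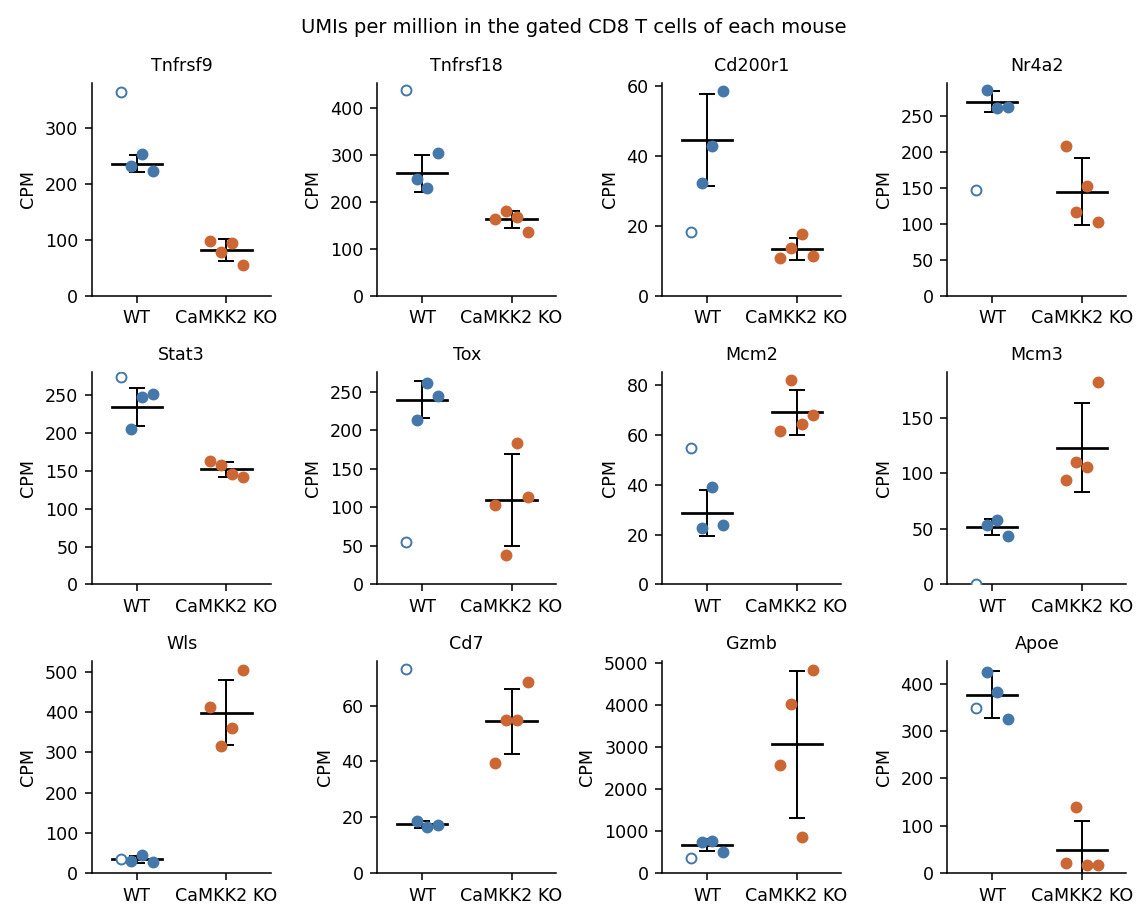
CPM of 12 genes in the gated CD8+ T cells of each mouse. Points are mice 1 to 4 from left to right, the open point is WT mouse 1 (8 cells, not tested), and bars are the mean and SD of the mice tested, cut off at 0. Tnfrsf9 lies between 54.0 and 97.8 CPM in CaMKK2 KO and above 220 CPM in all WT mice, while Gzmb in CaMKK2 KO mouse 3 is near the WT mice.

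Subunits of the replicative helicase were higher in the gated cells of CaMKK2 KO mice. Of 30 cell cycle genes tested, 4 were higher and none lower (13.3%, against 1.18% of all genes), and 28 had a positive log2 fold change, with a median of 0.52 against 0.08 over all genes. The 4 were Mcm2, Mcm3 and Mcm5, subunits of the replicative helicase, and Tuba1b, an α-tubulin that serves the spindle among other uses. Mcm3 was 0, 53.8, 57.8 and 43.3 CPM in WT and 93.7, 109.7, 106 and 182 CPM in CaMKK2 KO mice (log2 fold change 1.17, standard error 0.21, adjusted p = 0.0095). Mcm2 was 54.9, 22.9, 39.3 and 23.8 CPM in WT and 61.7, 82.3, 64.6 and 68.2 CPM in CaMKK2 KO mice (log2 fold change 1.16, standard error 0.22, adjusted p = 0.0095). The tested mice did not overlap for either gene, although WT mouse 1 with 3 UMIs of Mcm2 was close to the lowest CaMKK2 KO mouse. Mcm5 (log2 fold change 1.04, standard error 0.22, adjusted p = 0.0252) and Tuba1b (log2 fold change 0.76, standard error 0.15, adjusted p = 0.0164) were called as well. Mcm2, Mcm3 and Tuba1b each lost their call without WT mouse 2 or 4 (adjusted p of up to 0.114, 0.114 and 0.207). Their calls held in 14 of 17, 15 of 18 and 14 of 19 alternatives, and the highest adjusted p was 0.145 for Mcm2 (members with under 3 C1q UMIs), and 0.317 for Mcm3 and 0.281 for Tuba1b (members with no Mki67 or Top2a UMI, where the log2 fold changes were 1.72 and 0.63). The call of Mcm5 was lost without WT mice 2 or 4 or CaMKK2 KO mice 1 or 4 (adjusted p of up to 0.218, without WT mouse 4), holding in 11 of 17 alternatives, with the highest adjusted p of 0.274 in members with under 3 C1q UMIs. Hells and Dnmt1, chosen after their values were seen, maintain chromatin and DNA methylation at replication. Hells was 18.3, 38.98, 42.1 and 41.1 CPM in WT and 69.05, 85.7, 63.2 and 73.9 CPM in CaMKK2 KO mice (log2 fold change 0.78, standard error 0.18, adjusted p = 0.0411, lost without WT mice 2, 3 or 4 or CaMKK2 KO mice 1, 2 or 4 (adjusted p of up to 0.207, without WT mouse 4), holding in 8 of 17 alternatives). The late-cycle genes Mki67 (0.51, adjusted p = 0.645) and Top2a (0.54, 0.43) did not pass the test.

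Genes of replication are known targets of E2F factors, and the promoters of Mcm3 and Hells are printed to show windows that hold words of the E2F site, chosen after the matches were seen. They run from 250 bases before to 50 after the start of the gene (RefSeq, GRCm38.p6), each 5′ to 3′ on the gene's strand, with these words in capitals. The words searched were TTTCCCGC, TTTCGCGC, TTTGCCGC and TTTGGCGC on both strands, and matches on the other strand read as their reverse complement.
Mcm3, chr1:20820263-20820562, minus strand: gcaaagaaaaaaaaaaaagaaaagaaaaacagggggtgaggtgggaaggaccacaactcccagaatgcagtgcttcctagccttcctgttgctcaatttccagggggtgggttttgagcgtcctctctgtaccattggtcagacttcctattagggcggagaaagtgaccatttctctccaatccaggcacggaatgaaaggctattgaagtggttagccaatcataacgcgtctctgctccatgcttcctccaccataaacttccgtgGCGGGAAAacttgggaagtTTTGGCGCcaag
Hells, chr19:38930740-38931039, plus strand: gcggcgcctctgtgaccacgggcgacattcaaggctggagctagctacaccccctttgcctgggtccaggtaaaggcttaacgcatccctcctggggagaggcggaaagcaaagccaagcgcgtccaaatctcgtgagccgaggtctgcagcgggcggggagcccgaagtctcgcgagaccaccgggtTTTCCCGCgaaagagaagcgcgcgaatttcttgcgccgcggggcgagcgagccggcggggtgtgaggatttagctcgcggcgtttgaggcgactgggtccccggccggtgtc
The Mcm3 window held 2 matches and the Hells window 1, while 744 of 32851 promoter windows of this length (2.26%) held any. In all, 9 windows of 7 called genes were searched, and 5 held a match. The others with a match were those of Mcm5 (2 matches) and Smc1a (1) and 1 of the 3 windows of Dnmt1 (2). None of these words was in the windows of Mcm2, whose log2 fold change was close to that of Mcm3, or of Tuba1b. The 7 genes were chosen after their values were seen. A match describes the sequence and is not a measured binding site.

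The share of members in cycle was also read from Mki67 and Top2a UMIs, a measure chosen after values were seen. At least 3 such UMIs were held by 0, 8.96, 10.9 and 6.10% of members in WT mice 1 to 4 and by 20.2, 19.0, 20.6 and 22.6% in CaMKK2 KO mice 1 to 4. The 0 in WT mouse 1 is of 8 cells, which allows a share of up to 37.5%. The groups did not overlap (6.50% ± 4.77 against 20.6% ± 1.47, SD, n = 4 each, two-sided exact permutation test, p = 0.0286, the smallest possible). Since the CaMKK2 KO cells were deeper, each cell was thinned to 5000 UMIs, which kept 265 WT and 242 CaMKK2 KO cells. The shares were then 0, 6.25, 7.89 and 6.17% in WT and 10.5, 15.0, 12.2 and 6.90% in CaMKK2 KO mice. CaMKK2 KO mouse 4 then lay within the WT range, and the exact test gave p = 0.0571, with a difference of 6.09 percentage points in place of 14.1. In the B cells Mki67 was seen in 4.23% of WT and 2.98% of CaMKK2 KO cells, and in members in 22.1% and 34.0%. Top2a was seen in 2.82% of WT and 7.74% of CaMKK2 KO B cells, and in 25.3% and 30.4% of members.

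**Figure D4:**
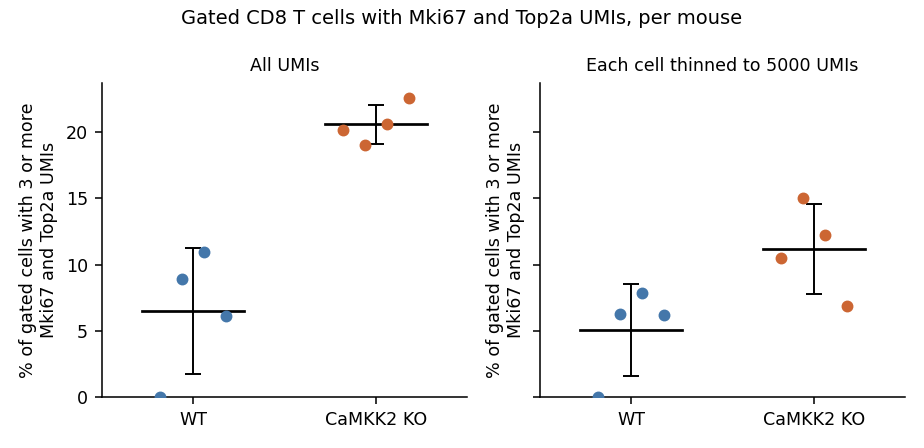
Percentage of gated CD8+ T cells with at least 3 Mki67 and Top2a UMIs in each mouse, with all UMIs (left) and after each cell was thinned to 5000 UMIs (right). Points are mice 1 to 4 from left to right, with the mean and SD of 4 mice. All CaMKK2 KO mice lie at 19.0% or more on the left, and CaMKK2 KO mouse 4 falls to 6.90% on the right.

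Of 17 genes of the cytotoxic granule tested, 1 was higher and none lower (5.88%, against 1.18% of all genes, median log2 fold change 0.19). It was Ctsd, the lysosomal protease cathepsin D, at 256, 575, 635 and 606 CPM in WT and 847, 946, 821 and 938 CPM in CaMKK2 KO mice (log2 fold change 0.55, standard error 0.13, adjusted p = 0.0403, lost with TMM scaling and without WT mice 2, 3 or 4 or CaMKK2 KO mice 1 or 4 (adjusted p of up to 0.255, without WT mouse 4), holding in 11 of 19 alternatives). Gzmb, the granzyme that activates caspases in target cells, was 366, 742, 772 and 504 CPM in WT and 2579.5, 4012, 850.4 and 4826 CPM in CaMKK2 KO mice. All CaMKK2 KO mice were above all WT mice, but mouse 3 was close to them and the gene did not pass the edgeR test (log2 fold change 2.18, standard error 0.65, adjusted p = 0.235). It passed with DESeq2 (adjusted p = 0.0135) and without CaMKK2 KO mouse 3 (log2 fold change 2.50, adjusted p = 0.00823). It was seen in 74.0% of WT and 92.5% of CaMKK2 KO members, and in 7.75% and 16.1% of the B cells. Gzma, another granzyme, was 238, 5.38, 34.99 and 142 CPM in WT and 97.0, 2325, 48.98 and 2218 CPM in CaMKK2 KO mice, high in mice 2 and 4 and overlapping in the others (log2 fold change 4.22, standard error 1.95, adjusted p = 0.417). Prf1, which encodes perforin, overlapped between genotypes (log2 fold change 0.67, standard error 0.50, adjusted p = 0.633), as did Nkg7 (log2 fold change 0.06, standard error 0.14, adjusted p = 0.895).

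Of 19 residency, adhesion and homing genes tested, 2 were higher and none lower (10.5%, against 1.18% of all genes), and 9 were higher in every CaMKK2 KO mouse than in every WT mouse tested, against 9.93% of all genes (median log2 fold change 0.46). Itgb1, the integrin β1 chain, was 238, 138, 187 and 178 CPM in WT and 304, 254, 276 and 222 CPM in CaMKK2 KO mice (log2 fold change 0.66, standard error 0.15, adjusted p = 0.0366), a call lost with TMM scaling and without WT mice 2, 3 or 4 or CaMKK2 KO mouse 1 (adjusted p of up to 0.197, without WT mouse 4), holding in 12 of 19 alternatives. WT mouse 1 lay above the lowest CaMKK2 KO mouse. Emp1, an epithelial membrane protein gene, was 0, 6.72, 5.71 and 5.41 CPM in WT and 36.2, 30.9, 36.2 and 19.9 CPM in CaMKK2 KO mice (log2 fold change 2.45, standard error 0.33, adjusted p = 3.54e-04). Ccr2 (log2 fold change 2.15, standard error 0.52, adjusted p = 0.137), a chemokine receptor gene chosen after its values were seen, had no overlap among the tested mice but did not pass the edgeR test. It passed with limma (1.59, adjusted p = 0.0234) and in members without any UMI of Gzmc, Gzmf, Tcf7, Lef1 or S1pr1 (1.79, adjusted p = 0.00305). The latter alternative also left out CaMKK2 KO mouse 2, for its few cells. Ly6c2, a surface marker of effector T cells and of monocytes, was 329, 468, 603 and 293 CPM in WT and 1214, 2026, 624 and 1974 CPM in CaMKK2 KO mice, without overlap (log2 fold change 1.67, standard error 0.52, adjusted p = 0.247), and it passed with DESeq2 (adjusted p = 0.0249). Actb, β-actin, was 3676, 6445, 7907 and 6392 CPM in WT and 9462, 15917, 10146 and 12950.0 CPM in CaMKK2 KO mice, without overlap (log2 fold change 0.81, standard error 0.17, adjusted p = 0.0232, lost without WT mice 2 or 4 or CaMKK2 KO mouse 4 (adjusted p of up to 0.249, without WT mouse 4), holding in 14 of 19 alternatives). Pfn1, an abundant gene of the actin-binding protein profilin, had a log2 fold change of 0.56, but its call was lost with TMM scaling and without WT mice 2, 3 or 4 or CaMKK2 KO mice 1 or 4 (adjusted p of up to 0.348, without WT mouse 4), holding in 9 of 19 alternatives. Lgals1, the galectin-1 gene, chosen after its values were seen and part of no list, was at 0.79, and its call was lost without WT mice 2 or 4 or CaMKK2 KO mouse 4 (adjusted p of up to 0.207, without WT mouse 4), holding in 15 of 19 alternatives.

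Among the called genes, the largest log2 fold changes were in genes of other functions, several of which were called in the rest of the infiltrate too. Wls, which carries Wnt proteins to the cell surface (chromosome 3, 159839672 to 159938664), was 36.6, 30.9, 44.3 and 29.2 CPM in WT and 413, 315, 359.9 and 503 CPM in CaMKK2 KO mice, 11.4-fold apart (log2 fold change 3.48, standard error 0.20, adjusted p = 2.64e-09). It was called in all 19 alternatives and was also higher in the Gzmc/Gzmf-high cells (3.50) and in all other cells (2.04). Ifi213, of the interferon-induced PYHIN family, was 18.3, 44.4, 75.7 and 53.05 CPM in WT and 3.29, 6.86, 2.84 and 8.53 CPM in CaMKK2 KO mice (log2 fold change -3.81, standard error 0.35, adjusted p = 4.09e-06). Zfp990, a zinc finger gene, had 1 UMI in the WT mice tested and 117 in CaMKK2 KO mice, a ratio of CPM of 109.8 (exact 95% interval 19.3 to 4374, counting error only). Gm8797, a predicted gene, was 0, 8.06, 7.86 and 10.8 CPM in WT and 162, 175, 171 and 159 CPM in CaMKK2 KO mice (log2 fold change 4.22, standard error 0.20, adjusted p = 1.27e-10). It shares 85.7% of its 31-base words with Ubb, which did not differ by the test (-0.14, adjusted p = 0.653), so reads of the 2 may have been split and its value is uncertain. Eif3j1 (log2 fold change -1.98, standard error 0.21, adjusted p = 1.65e-05) and Eif3j2 (log2 fold change 3.61, standard error 0.38, adjusted p = 1.65e-05), copies of a translation initiation factor gene, moved in opposite directions. Eif3j2 shares 94.0% of its words with Eif3j1, and both values are uncertain for the same reason.

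The remaining called genes with the highest log2 fold changes were Gm49980 (2.40), a predicted gene, Eno3 (2.26), the muscle enolase of glycolysis, and Slc22a15 (1.89), a transporter. They were followed by Mad2l2 (1.66), a factor of DNA repair, Ap1b1 (1.29), an adaptor of vesicle traffic, and Napsa (1.27), an aspartic protease. The lowest were Plcxd2 (-2.47), Bend4 (-2.23), Gldc (-1.43), the glycine decarboxylase of mitochondria, Zfp672 (-1.40) and Pink1 (-1.17), the kinase of mitochondrial quality control. The tested mice did not overlap for any of these genes. Plcxd2 lost its call with limma (adjusted p = 0.12), holding in 10 of 11 alternatives, at log2 fold changes of -3.05 to -1.35 over all of them. Eno3 lost its call without WT mouse 4 (adjusted p = 0.062), holding in 14 of 15 alternatives. The call of Ap1b1 was lost without WT mice 2, 3 or 4 or CaMKK2 KO mice 1 or 4 (adjusted p of up to 0.142, without WT mouse 3), holding in 8 of 15 alternatives. That of Gldc was lost without WT mouse 2 or CaMKK2 KO mouse 1 (adjusted p of up to 0.0959, without WT mouse 2), holding in 13 of 17 alternatives, with the highest adjusted p of 0.16 in members with no Gzmc, Gzmf, Tcf7, Lef1 or S1pr1 UMI. That of Zfp672 was lost without WT mice 2, 3 or 4 or CaMKK2 KO mouse 1 (adjusted p of up to 0.122, without WT mouse 4), holding in 12 of 16 alternatives, and that of Pink1 without WT mice 2 or 4 or CaMKK2 KO mice 1, 3 or 4 (adjusted p of up to 0.125, without WT mouse 2), holding in 5 of 14 alternatives.

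In all other cells of the same mice, 234 of 12441 genes tested were called (1.88%). Of the 73 genes called in the gated cells, 15 were called there in the same direction and 0 in the opposite one, among them Wls, Ifi213, Zfp990, Gm8797, Eif3j1, Eif3j2, Emp1, Slc22a15 and Crlf2. Tnfrsf9 (-0.75, adjusted p = 0.286), Tnfrsf18 (0.55, 0.348), Cd7 (0.34, 0.480) and Mcm3 (-0.23, 0.526) did not pass there. Whether the 2 sets of cells differed in these responses was not tested.

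**Figure D5:**
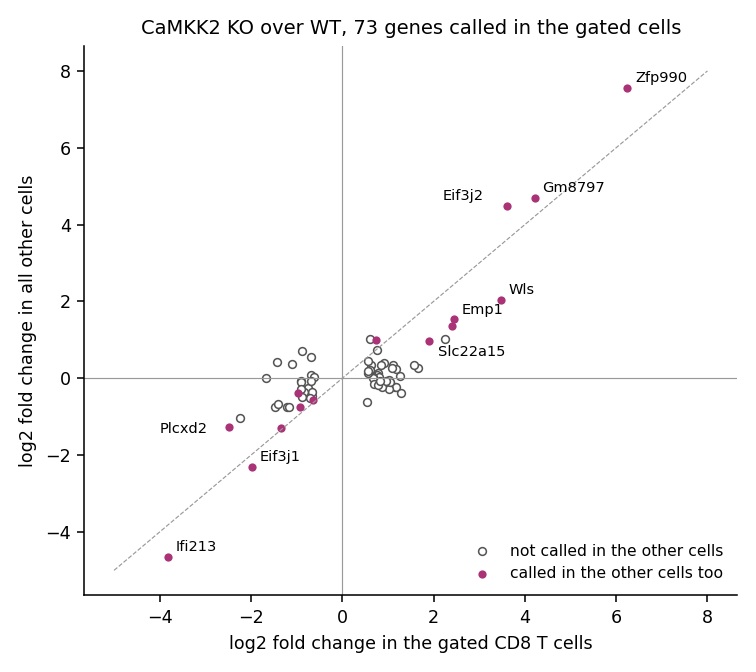
Log2 fold changes (CaMKK2 KO over WT) of the 73 genes called in the gated CD8+ T cells (x axis) against those in all other cells of the same mice (y axis). Filled points are the 15 genes called in both, open points were not called in the other cells, and the dashed line marks equal changes. The filled points have the same sign on both axes.

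The most similar cells were the Gzmc/Gzmf-high CD8+ T cells, 180 barcodes with a median of 16002 UMIs in WT and 17506 in CaMKK2 KO mice. In these, 8 of 3839 genes tested were called between genotypes (0.208%), and 6 of the 8 were among the 73, among them Gm8797, Wls, Eif3j1, Crlf2 and Serpina3g. Tnfrsf9 was -1.25 there (adjusted p = 0.332), and its term for a different response in the 2 gates was 0.05 (adjusted p = 0.998). In the test of that term over 7171 genes, with the mouse as a block, edgeR called 0 genes, and 286 (3.99%) had an unadjusted p under 0.05. It used WT mice 2 to 4 and CaMKK2 KO mice 1 to 3, so a p that misses the threshold does not show that the gates responded alike. Cells positive for Tcf7, Lef1 or S1pr1 could not be compared in this way, since no CaMKK2 KO mouse had 10 of them.

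Further gene groups gave few calls or none by the edgeR test. TMM scaling moved the median of all genes by -0.08, so list medians nearer to 0 than this may take the other sign. In the T cell receptor complex and its near signalling, 0 of 21 genes tested passed (median log2 fold change 0.05), and Lck (0.05), Zap70 (-0.02) and Cd3g (0.10) lay near 0. Effector and memory transcription factors had 0 of 22 (median 0.04), with Id2 at 0.37 (adjusted p = 0.196) and Runx3 at -0.17 (0.64). Chemokines and cytokines had 0 of 12 (median -0.12), cytokine receptors 0 of 22 (0.07) and NK-type receptors 0 of 12 (0.11). Ifng, the interferon γ gene, was 0, 279.6, 609.9 and 257 CPM in WT and 409, 274, 148 and 329.9 CPM in CaMKK2 KO mice, with overlap (log2 fold change -0.41, standard error 0.49, adjusted p = 0.779). MHC class I genes had 0 of 15 (0.26) and glycolysis 0 of 21 (0.20), with Ldha at 0.33 (adjusted p = 0.223). In the interferon response, 1 of 38 passed (2.63%, against 1.18% of all genes), the lower Ifi213, while the median log2 fold change was 0.40 and CaMKK2 KO mice 2 and 4 stood apart for several members. Isg15, an interferon-induced modifier chosen after its values were seen, was 0, 43.01, 97.1 and 44.4 CPM in WT and 65.8, 466, 31.9 and 327 CPM in CaMKK2 KO mice (log2 fold change 1.55, standard error 1.12, adjusted p = 0.628). Of 25 heat shock and early genes that rise on dissociation, 1 was lower, Dusp4 (4%, against 1.18% of all genes called and 0.486% called lower, median -0.13), with Hspa8 at -0.02 and Fos at 0.46. The 13 AMPK and calmodulin kinase genes tested had a median log2 fold change of 0.14.

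RNA of macrophages differed between mice in the gated cells. The 24 macrophage and microglia genes summed to 1372, 1961, 2430 and 1541 CPM in WT mice 1 to 4 and to 2057, 12378, 1474 and 4994 CPM in CaMKK2 KO mice 1 to 4, so that CaMKK2 KO mice 2 and 4 were the highest. They were the mice with the fewest CaMKK2 KO members, and also the highest for Gzmb, Gzma, Isg15, Ly6c2 and Actb. The 13 monocyte, neutrophil and dendritic cell genes, with Ly6c2 the most abundant, were highest in the same mice. They summed to 530, 1317, 1495.5 and 972 CPM in WT and 2025, 3559, 1230 and 3085 CPM in CaMKK2 KO mice 1 to 4. The part of macrophage or monocyte RNA in those results was not tested. Of 16 macrophage and microglia genes tested, 0 were higher and 1 was lower, C1qb, a gene that the gate limits (6.25%, against 1.18% of all genes, median log2 fold change 0.62). Its call was lost without WT mouse 4 (adjusted p = 0.079) and in members with under 3 C1q UMIs (log2 fold change -0.64, adjusted p = 0.353). The most abundant was Cd74, the MHC class II chaperone, at 128, 118, 105 and 88.8 CPM in WT and 318, 3010.5, 129 and 1226 CPM in CaMKK2 KO mice, of which 3 cells held 65.7% of the CaMKK2 KO UMIs. The microglial genes Tmem119 and P2ry12 stood at 6.72 CPM or less in every mouse, and none of the 24 was at 0 throughout. Apoe, an abundant macrophage gene, was 348, 423, 381 and 325 CPM in WT and 21.4, 141, 17.7 and 17.1 CPM in CaMKK2 KO mice, without overlap, and did not pass the edgeR test (log2 fold change -3.39, standard error 0.74, adjusted p = 0.143). It passed with DESeq2 (adjusted p = 0.0109), with limma (adjusted p = 0.0114) and in members without any UMI of Gzmc, Gzmf, Tcf7, Lef1 or S1pr1 (log2 fold change -4.47, adjusted p = 1.44e-12). The last of these also left out CaMKK2 KO mouse 2, which had 7 such cells and the highest Apoe level of the CaMKK2 KO mice. Apoe was seen in 95.4% of WT and 20.2% of CaMKK2 KO members, and in 95.1% and 19.6% of the B cells. The B cells had 1031 to 2298 CPM of it in WT and 30.7 to 1704.5 CPM in CaMKK2 KO mice. Whether the members expressed Apoe or held it as free RNA was not tested. In C1q-positive cells, with at least 30 UMIs of the C1q genes and none of Cd3d, Cd3e or Trac, the level was 25197 to 34991 CPM in WT and 1223 to 4054 CPM in CaMKK2 KO mice. In members with under 10 UMIs of Cd74, H2-Aa, H2-Ab1 and H2-Eb1, a limit set after seeing the data, 101 genes were higher and 61 lower, and 72 of the 73 were tested there and called again. In those cells Gzmb was 2.19 (adjusted p = 0.193), against 2.18 among all members, Ccr2 was 2.004 (adjusted p = 1.02e-04) and Apoe was -4.19 (adjusted p = 6.98e-15).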

How the data were processed

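Gene expression and hashtags were measured in 1 10X library per genotype, each holding 4 mice. The authors deposited raw UMI counts per gene and barcode, made with bcl2fastq 2.20 and Cell Ranger 4.0.0 (STAR 2.7.5c) on mm10 per the labels, with no normalization. Members and gene lists were chosen with earlier results of these data known. HTODemux of Seurat 5.3.0 (quantile 0.99) assigned barcodes to mice, and doublets (7 WT and 17 CaMKK2 KO members) and negatives were left out. No further doublet caller was run. Sums of UMIs per mouse were compared by robust quasi-likelihood fits in edgeR 4.0.16, on library sizes equal to total UMIs, for genes with at least 100 UMIs and mice with at least 10 members, with Benjamini-Hochberg adjustment over all genes tested. The test was checked on simulated data, and the outcome of that check is not given here. Named genes were Camkk2, the markers, the 12 highest and 12 lowest called genes without overlap, called and most abundant members of each list, and the 20 most abundant genes. Other genes are marked as chosen later, and some genes that this rule names are not reported here. B cells had at least 5 UMIs of Cd79a, Cd79b and Ms4a1, under 3 of C1q genes and none of Cd3d, Cd3e or Trac. Positions are from GENCODE M21, found for 31107 of 31253 genes. Alternatives were TMM, DESeq2 1.42.0, limma 3.58.1 on log2(CPM + 10), other count filters, all 8 mice, stricter gates, and each mouse left out. Software was R 4.3.3, Python 3.11.15, numpy 2.4.6, pandas 2.3.3, scipy 1.17.1 and matplotlib 3.10.9.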

Additional observations from a re-analysis of the deposited data

Results flagged for a closer look

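Of 53 groups of 4 mice looked at, 4 had a mouse farther from its group than Dixon's critical value for 4 values, where chance gives about 1 in 20. This rule takes no account of counting error. CaMKK2 KO mouse 4 stood apart for Camkk2 at 5.69 CPM, against 3.29 to 3.55 CPM in the other CaMKK2 KO mice. In that mouse 3 UMIs make 8.53 CPM, so its Camkk2 value rests on fewer than 3 UMIs. CaMKK2 KO mouse 2 stood apart for Plcxd2 at 24.0 CPM, against 2.47 to 5.69 CPM. CaMKK2 KO mouse 3 stood apart for Pink1 at 11.4 CPM, against 16.4 to 17.1 CPM. WT mouse 1, with 8 gated cells, stood apart in median depth at 6588.5 UMIs per cell, against 9647 to 10179.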

How the results depend on the processing

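Of 1282 pairs of a called gene and an alternative that gave it an adjusted p, 910 kept their call, 372 lost it and 0 changed sign. With each mouse left out in turn, 17 of the 73 genes were called wherever they had an adjusted p. Not all were tested each time, and without CaMKK2 KO mouse 3 only 68 of the 73 were. Bend4 and Plcxd2, which are among the 17, had an adjusted p in 11 of 19 alternatives each. The 43 higher and 30 lower genes became 26 higher with TMM scaling and 28 with DESeq2, 173 and 89 with no filter on low counts, 18 lower with limma on cells weighted equally, 110 and 59 in members with no UMI of Gzmc, Gzmf, Tcf7, Lef1 or S1pr1, and 17 and 16 with under 3 C1q UMIs. In 2 alternatives chosen after seeing the data, they were 27 higher in members with no Mki67 or Top2a UMI (Mcm3 and Tuba1b did not pass there, at log2 fold changes of 1.72 and 0.63 with fewer cells and genes tested) and 101 and 61 in members with low MHC class II. With a mouse left out, higher genes numbered 11 (WT mouse 4 left out) to 72 (CaMKK2 KO mouse 3), and lower genes 7 (WT mouse 4) to 43 (CaMKK2 KO mouse 2 or 3). In between, WT mouse 2 left out gave 12 and 12, WT mouse 3 gave 38 and 16, CaMKK2 KO mouse 1 gave 21 and 18, and CaMKK2 KO mouse 4 gave 24 higher genes. The cause was not tested, except that fewer mice or cells were compared where some were left out. The alternative with no UMI of Gzmc, Gzmf, Tcf7, Lef1 or S1pr1 also left out CaMKK2 KO mouse 2, which had 7 such members. DESeq2 gave no adjusted p to some of the 73 genes, such as Eif3j1, so these could not be called there. The difference in the share of members was 5.43 percentage points of CD8+ T cells, 0.026 with under 3 C1q UMIs, and -2.03 to 0.633 with a mouse left out, the sign turning without WT mouse 3 or CaMKK2 KO mouse 2. The gate term had 0 genes in each alternative except 1, Gzmd, without WT mouse 4. The term for cells positive for Tcf7, Lef1 or S1pr1 and its alternatives were not run, since no CaMKK2 KO mouse had 10 such cells. No paired analysis was possible because hashtag numbers only name mice within a library and pair no WT mouse with a CaMKK2 KO mouse. Depth limits the values of WT mouse 1 and of CaMKK2 KO mice 2 and 4 most.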

Other observations

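The genes called in the gated cells were unevenly spread over the genome, given here as a description with no test. Chromosome 4 held 11 of its 370 tested genes (2.97%), chromosome 3 held 9 of 295 (3.05%) and chromosome 5 held 9 of 407 (2.21%), against 1.18% of all genes. Chromosomes 13 and 17 held 0 of 238 and 0 of 316. Within 25 Mb of Camkk2 on chromosome 5, 8 of 221 genes tested were called (3.62%), among them Crlf2, Vps37b, Rpl21, Gtf2i, Kdm2b, Anapc5 and Actb, of which Anapc5 and Actb were higher and the others lower in CaMKK2 KO mice. The calls held in 8 of 18 alternatives for Anapc5, 11 of 18 for Kdm2b, 12 of 18 for Gtf2i, 14 of 19 for Actb, 15 of 19 for Rpl21, 17 of 19 for Vps37b and 18 of 18 for Crlf2, and at least 1 mouse left out ended the call for each of these except Crlf2 (adjusted p of up to 0.29, for Anapc5 without WT mouse 4). Anapc5 spans 122787459 to 122821339 and Kdm2b spans 122870665 to 122989823. Both lie close to Camkk2 (122731170 to 122779409), and all are on the minus strand. Gzmb (1.42, adjusted p = 0.169) and Apoe (-4.02, adjusted p = 0.00766) had the same sign in all other cells as in the gated cells. Ccl1, a T cell chemokine, was 18.3, 297, 12.9 and 50.9 CPM in WT and 8.22, 17.1, 2.13 and 2.84 CPM in CaMKK2 KO mice of the gated cells, high in WT mouse 2 and overlapping otherwise (edgeR, log2 fold change -4.21, standard error 1.59, adjusted p = 0.322). It was seen in 5.61% of WT members, and 3 cells held 86.1% of the WT UMIs. Serpinb9, an inhibitor of granzyme B, was 274, 121, 97.1 and 101 CPM in WT and 47.7, 82.3, 63.2 and 73.9 CPM in CaMKK2 KO mice, without overlap and just short of the threshold (edgeR, log2 fold change -0.75, standard error 0.18, adjusted p = 0.0514), and it passed with TMM scaling (adjusted p = 0.0252). All of these genes and regions were chosen after their values were seen.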
